A study of Mus musculus with 6 samples.

Results

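The core of the circadian clock is described here in mouse taste cells taken from circumvallate (CV) and foliate (Fol) papillae, which carry taste buds on the rear part of the tongue. It comprised 8 genes, namely the activators Arntl (BMAL1), Clock and Npas2, the period genes Per1, Per2 and Per3, and the cryptochromes Cry1 and Cry2. All 8 were found by symbol, once each, among the 23361 genes of the table. The genes were chosen by their place in the clock after log2 changes of clock genes between the ages had been seen in these same values, so those changes are a description and were not tested. Cells of C57BL/6 mice were collected at 2 months and at 6 months of age, with 3 pooled samples at each age, 4 mice in each pool at 2 months and 3 mice in each pool at 6 months. No allele or treatment is named for either age, and the cells had been freed from the lingual epithelium by enzymes and collected by suction from both kinds of papilla. The deposited value is 1 FPKM (a fragment count scaled by transcript length and by library size) per gene and age over the 3 pools. Values of single pools were not used here, so no SD, interval or p-value is given, and whether a difference exceeds the spread between pools cannot be judged from these values. FPKM does not carry the number of reads, so the depth behind each value is unknown.

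In the mammalian clock, the protein of Arntl pairs with that of Clock or Npas2, and the pair switches on genes that carry an E-box. Per and Cry are among those genes, and their proteins return to the nucleus and hold the activator pair in check, so that the transcripts of most clock genes rise and fall over the day. In many tissues Arntl and Npas2 are highest when the Per genes are low. A further loop is formed by nuclear receptors, in which ROR proteins activate and REV-ERB proteins repress Arntl through the RORE element. D-boxes are bound by DBP, TEF and HLF, which activate, and by NFIL3, which represses. The hour at which the mice were killed is not given in the sources used here, so age and hour of collection cannot be told apart in any value below.

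The regulatory elements of this loop were searched for in RefSeq promoter windows of GRCm38.p6, each running from 250 bases before to 50 bases after a start site. Windows were found for 7 of the 8 genes, 11 windows in all, and none was used for Per2. The letters searched, on both strands, were CACGTG for the E-box, TTATGTAA or TTACGTAA for the D-box, ANTAGGTCA or ANTGGGTCA for the RORE, and TGACGTCA for the CRE (cyclic AMP response element). No match of 1 of these motifs overlapped a match of another in these windows. The stretches with a match are shown 5′ to 3′ with the motif in capitals, the first an E-box, the next a pair of D-boxes, then an E-box and a RORE.
Per1 (chr11:69098699-69098948, plus strand): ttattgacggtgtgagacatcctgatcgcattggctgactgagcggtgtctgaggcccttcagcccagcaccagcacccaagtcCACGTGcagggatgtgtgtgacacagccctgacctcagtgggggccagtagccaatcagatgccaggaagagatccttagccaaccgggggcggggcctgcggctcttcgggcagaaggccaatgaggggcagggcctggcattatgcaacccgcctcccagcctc
Per3 (chr4:151044666-151044915, minus strand): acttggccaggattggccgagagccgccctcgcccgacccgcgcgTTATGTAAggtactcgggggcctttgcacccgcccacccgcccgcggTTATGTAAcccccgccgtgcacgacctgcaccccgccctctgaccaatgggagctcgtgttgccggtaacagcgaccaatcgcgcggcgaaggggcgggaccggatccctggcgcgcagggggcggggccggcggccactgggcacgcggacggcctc
Cry1 (chr10:85185055-85185304, minus strand): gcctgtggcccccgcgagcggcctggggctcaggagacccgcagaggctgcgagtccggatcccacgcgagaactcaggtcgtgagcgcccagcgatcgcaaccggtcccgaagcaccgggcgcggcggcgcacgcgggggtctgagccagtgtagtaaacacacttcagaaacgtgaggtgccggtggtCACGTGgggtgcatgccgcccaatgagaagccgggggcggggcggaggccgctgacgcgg
Arntl (chr7:113207529-113207558, plus strand): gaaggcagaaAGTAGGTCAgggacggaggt

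Counted from the start site, with bases before it negative, the E-box began at base -166 in Per1 and at base -60 in Cry1. The D-boxes of Per3 began at bases -205 and -158, and the RORE of Arntl began at base 29 after its second start site. The Per1 start site lay 3732 bases inside the span that GENCODE M21 gives this gene. Across all 32851 windows, an E-box was found in 7.15%, a D-box in 1.06%, a RORE in 1.45% and a CRE in 1.79%. No CRE was found in the 11 windows, and none of the searched motifs was found in those of Clock, Npas2 and Cry2. A match of letters is not a bound site, and elements outside these windows were not searched.

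Clock, the gene of the main partner of BMAL1, had the highest level of the 8 at both ages. It had 23.2 FPKM in 2 month and 23.6 FPKM in 6 month cells, a log2 change of 0.02 on the log2(FPKM + 1) scale, 6 against 2 months, which is used for all changes below. This was the smallest difference among the 8 genes. Clock lies on chromosome 5 of GRCm38 from 76209868 to 76304792 on the minus strand.

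Arntl, which encodes BMAL1, a partner of both other activators, had 6.73 FPKM in 2 month and 5.03 FPKM in 6 month cells. In plain FPKM the 6 month value was 1.34-fold lower, and on the log2(FPKM + 1) scale it was a log2 change of -0.36. Arntl lies on chromosome 7 from 113207465 to 113314126 on the plus strand. Npas2, whose protein can take the place of CLOCK, was the least expressed of the 8 genes at both ages, with 3.34 FPKM in 2 month and 2.57 FPKM in 6 month cells. Its 6 month value was 1.30-fold lower in plain FPKM, a log2 change of -0.28. Npas2 lies on chromosome 1 from 39193731 to 39363236 on the plus strand. The activators therefore did not share a direction, since 2 of the 3 were lower at 6 months and Clock was nearly level, and their median log2 change was -0.28.

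All 3 period genes had higher values at 6 months. Per2, whose protein joins CRY in the repressor complex, had 9.44 FPKM in 2 month and 14.5 FPKM in 6 month cells. This was a 1.53-fold higher value in plain FPKM and a log2 change of 0.57, the highest of the 8 genes. Per2 lies on chromosome 1 from 91415982 to 91459324 on the minus strand. Per1, which in other tissues is also induced quickly by light-driven, cyclic AMP and glucocorticoid signals, had 11.8 FPKM in 2 month and 16.8 FPKM in 6 month cells, a log2 change of 0.47. Per1 lies on chromosome 11 from 69095217 to 69109960 on the plus strand. Per3, the period gene that the core rhythm of the mouse needs least, had 13.3 FPKM in 2 month and 17.8 FPKM in 6 month cells, a log2 change of 0.39. Per3 lies on chromosome 4 from 151003652 to 151044665 on the minus strand. The size of the change ran opposite to the level at 2 months, with Per3 the highest in level and the lowest in change of the 3.

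The cryptochromes, whose proteins are the direct repressors of the activator pair, were also higher at 6 months. Cry1 had 4.75 FPKM in 2 month and 6.31 FPKM in 6 month cells, a log2 change of 0.35. Cry2 had 10.8 FPKM in 2 month and 13.6 FPKM in 6 month cells, a log2 change of 0.30. Cry1 lies on chromosome 10 from 85131700 to 85185064 and Cry2 on chromosome 2 from 92403646 to 92434043, both on the minus strand. Of the exon bases of Cry2, 295 (4.67%) also lie in an exon of D930015M05Rik on the opposite strand, and without strand information reads there cannot be told apart. That gene had 0.629 FPKM in 2 month and 0.928 FPKM in 6 month cells. Arntl shared 33 exon bases (0.439%) with an antisense gene, and the other 6 genes shared none. Over the 5 Per and Cry genes the median log2 change was 0.39, with all 5 higher, which was 0.67 above the median of the activators.

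**Figure D1:**
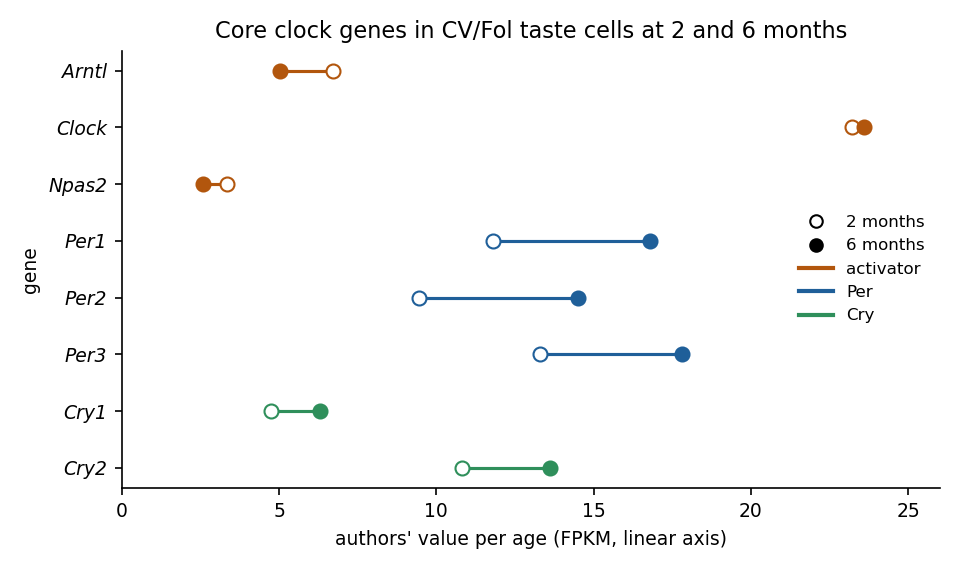
Level of each core clock gene (horizontal axis, FPKM, linear) at 2 months (open circles) and 6 months (filled circles), 1 value per age over 3 pools and so without error bars. Filled circles lie to the right for all 5 Per and Cry genes, to the left for Arntl and Npas2, and almost on the open circle for Clock.

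The order of the levels, which FPKM allows to be compared between genes because it is scaled by length, shifted in 2 places. At 2 months it ran Clock, Per3, Per1, Cry2, Per2, Arntl, Cry1 and Npas2, and at 6 months Per2 stood above Cry2 and Cry1 above Arntl. The other genes kept their places. Several neighbours lay close together. Per3 was 1.13 times Per1 at 2 months and 1.06 times Per1 at 6 months, and Per2 was 1.07 times Cry2 at 6 months. With no spread between pools, none of these neighbours can be called different. The widest gap was between Cry2 and Cry1 at 6 months, a ratio of 2.15. Against the 12652 genes here called expressed, whose mean over the ages was 1 FPKM or more, Clock at 2 months was at or above 69.4% of genes and Npas2 at or above 18.5%. Per2 moved from 43.4% at 2 months to 56.4% at 6 months, and Arntl from 33.7% to 27.0%. The lowest of these shares was 14.4%, for Npas2 at 6 months, and the highest 70.6%, for Clock at 6 months. The median expressed gene had 11.8 FPKM in 2 month and 11.7 FPKM in 6 month cells.

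Among all expressed genes the median log2 change was -0.01, with quartiles of -0.10 and 0.08, and 46.3% were higher at 6 months. Changes at least as high as that of Per2 were seen for 1.11% of expressed genes, as high as that of Per1 for 1.49%, of Per3 for 2.09%, of Cry1 for 2.55% and of Cry2 for 3.31%. Changes at least as low as that of Arntl were seen for 3.55% and as low as that of Npas2 for 5.64%. Clock, at 0.02, lay between the quartiles. For counting, a log2 change of 0.32 in either direction was taken as the limit. It was passed upward by 4 of the 8 genes, Per1, Per2, Per3 and Cry1, and by 2.95% of expressed genes. Cry2 fell just short of it with a log2 change of 0.30, and Cry1 was just past it with 0.35. The limit was passed downward by 1 of the 8, Arntl, and by 4.23% of expressed genes. Among the 6780 genes whose mean lay between those of Npas2 and Clock (2.96 to 23.4 FPKM), the limit was passed by 2.40% upward and by 3.42% downward. Since the genes were picked with these changes known, the counts are given beside the background without further reading. On the log2(FPKM + 1) scale none of the 8 genes reached 1.5-fold. No clock gene was listed at 0 at either age, whereas 79 expressed genes were listed at 0 at 1 age, which can be a failed estimate.

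**Figure D2:**
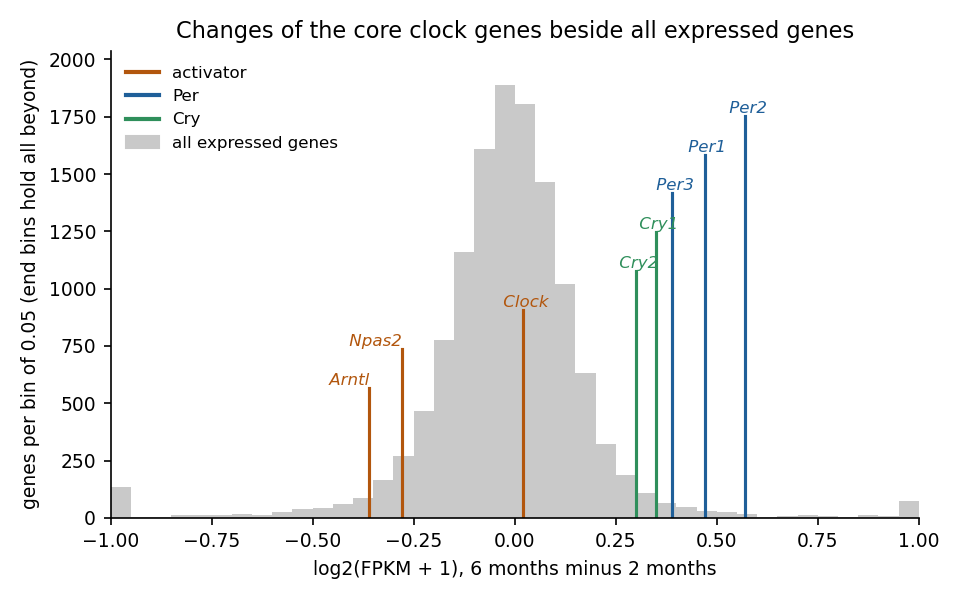
Number of expressed genes (vertical axis) by log2 change in FPKM + 1, 6 months minus 2 months (horizontal axis, bins of 0.05, with all genes beyond -1 or 1 in the end bins), and the change of each core clock gene as a coloured line whose height has no meaning. The 5 Per and Cry genes lie between 0.30 and 0.57, Clock at 0.02, and Npas2 and Arntl at -0.28 and -0.36.

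Ratios between clock genes within an age do not depend on how the ages were scaled to each other, so they were computed on plain FPKM. All 15 ratios of a Per or Cry gene to an activator gene were higher at 6 months, by 0.30 to 1.04 on the log2 scale. These ratios share their members and are not separate observations. Per2 was 1.40 times Arntl at 2 months and 2.88 times Arntl at 6 months. Per1 went from 1.76 to 3.34 times Arntl. Cry1 was below Arntl at 2 months, with a ratio of 0.707, and above it at 6 months, with a ratio of 1.26. Against Clock, which was nearly level, the ratio of Per2 went from 0.407 to 0.613 and that of Cry2 from 0.466 to 0.574. Summed over genes, Per and Cry had 50.2 FPKM in 2 month and 68.9 FPKM in 6 month cells, and the activators had 33.3 and 31.2 FPKM, a ratio of 1.51 at 2 months and 2.21 at 6 months. Among the Per genes, between the Cry genes and between Arntl and Npas2 the proportions moved by at most 0.20 in either direction on the log2 scale. Cry1 was 0.439 times Cry2 at 2 months and 0.466 times Cry2 at 6 months, Per2 was 0.798 and 0.864 times Per1, and Arntl was 2.01 and 1.95 times Npas2. Clock moved against both other activators, from 3.45 to 4.70 times Arntl (0.45) and from 6.95 to 9.19 times Npas2 (0.40), shifts that were larger than those of Per3, Cry1 and Cry2 against Clock.

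**Figure D3:**
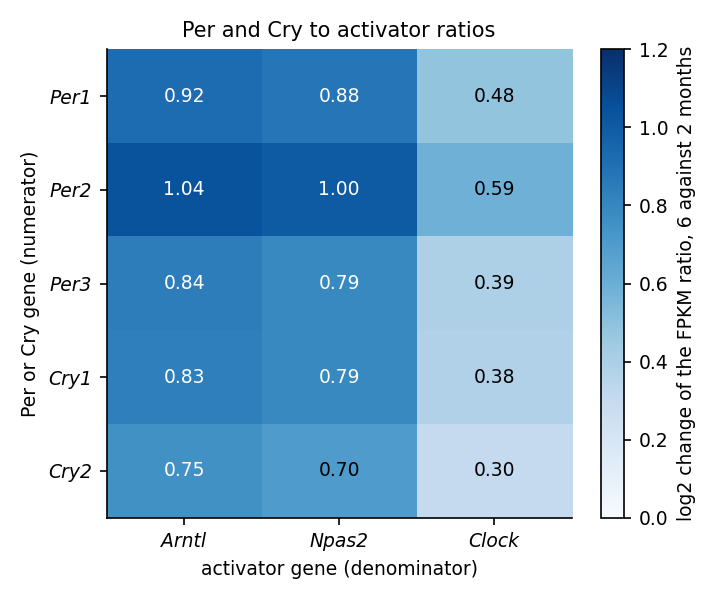
Log2 change, 6 against 2 months, of the FPKM ratio of each Per or Cry gene (rows) to each activator gene (columns), with darker blue for a larger change. The Arntl and Npas2 columns run from 0.70 to 1.04 and the Clock column from 0.30 to 0.59.

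The genes of the stabilizing loop and of clock output stand beside the core, and 11 of the 12 listed were expressed. Of these 11, 8 were higher and 3 lower at 6 months, 5 passed the limit of 0.32 upward and 0 downward, and the median log2 change was 0.28. Over all expressed genes 46.3% were higher, 2.95% passed the limit upward and 4.23% downward. The list was settled with its values known, so these counts are a description. Bhlhe41 and Bhlhe40, the DEC repressors that bind E-boxes, had log2 changes of 0.72 and 0.39, with Bhlhe41 at 1.86 FPKM in 2 month and 3.70 FPKM in 6 month cells. Dbp and Tef, D-box activators with E-box control, went from 24.5 to 36.9 FPKM (0.57) and from 50.2 to 66.1 FPKM (0.39), while their relative Hlf had a log2 change of 0.12. Ciart, an E-box repressor listed in the table as Gm129, went from 6.34 to 8.61 FPKM (0.39). Not all E-box genes were of this kind. Nr1d1 and Nr1d2, the REV-ERB genes, went from 68.3 to 68.0 and from 30.0 to 31.0 FPKM, with log2 changes of -0.01 and 0.05. Rora, a gene of a ROR protein, had a log2 change of 0.28, and Rorb was at 0.0304 and 0.0340 FPKM, under the filter. Nfil3, the D-box repressor and itself a RORE gene, went from 5.04 to 4.33 FPKM (-0.18), on the same side as Arntl and Npas2. The elements named here are background. In the promoter windows an E-box was found for Bhlhe41, Tef and Ciart and none for Dbp, Nr1d1 and Nr1d2. The part of any element in these changes was not tested. Arntl2, the paralogue of Arntl, had a log2 change of -0.01 with 14.5 FPKM at 2 months, above the level of Arntl at both ages.

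The genes that act on the clock proteins after translation had a median log2 change of 0.03, beside -0.01 for all expressed genes. Among all expressed genes 46.3% were higher, 2.95% passed the limit of 0.32 upward and 4.23% downward, shares that also stand beside the next list. Of 23 kinase, phosphatase and ubiquitin ligase genes, all expressed, 14 were higher and 9 lower at 6 months, and 1 passed the limit upward and 0 downward. The highest were Usp2, a deubiquitinase gene that is itself under clock control, with 0.39, and Prkaa2, a subunit of AMP kinase, with 0.23. The lowest were Csnk1e, which encodes the PER kinase casein kinase 1 epsilon, with -0.22, and Ppp1cb, a protein phosphatase 1 subunit, with -0.19. Csnk1e went from 29.6 to 25.2 FPKM. Of 22 coactivator and corepressor genes, 14 were higher and 8 lower, and the median was 0.03. Here the highest were Timeless (0.39), from 2.01 to 2.95 FPKM, and Kmt2a (0.20), a histone methyltransferase gene, and the lowest were Hdac2 (-0.17) and Ddx5 (-0.14). Timeless was the 1 gene of this list past 0.32, and its best known role in mammals is at the replication fork.

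The bHLH-PAS family, to which the proteins of the 3 activators belong, gave a comparison of related genes outside the clock. Of 15 such genes 8 were expressed, with 7 higher, 1 lower, a median log2 change of 0.04 and 0 past 0.32 in either direction. Over all expressed genes 46.3% were higher, 2.95% were past 0.32 upward and 4.23% downward. The highest of the 8 were the coactivator gene Ncoa3 (0.27) and the hypoxia factor gene Epas1 (0.24), and the lowest were the dioxin receptor gene Ahr (-0.08) and Hif1a (0.01). None of these 8 relatives was as low as Arntl or Npas2. Only 3.55% of all expressed genes were as low as Arntl and 5.64% as low as Npas2, so this does not set them apart from the family.

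**Figure D4:**
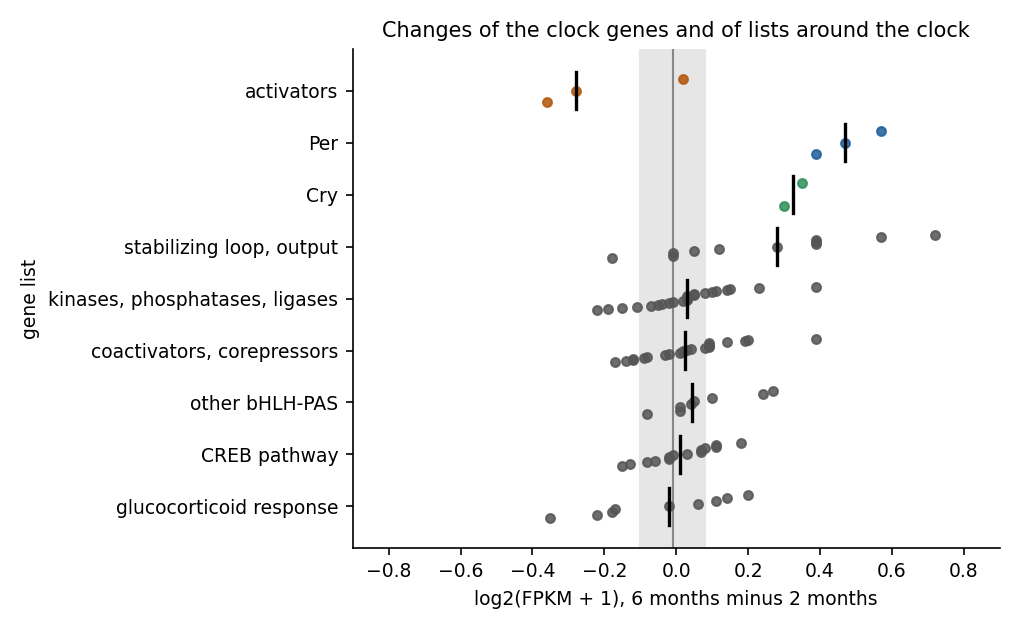
Log2 change in FPKM + 1, 6 months minus 2 months (horizontal axis), of each expressed gene (points, spread vertically for visibility) in the core clock groups and in 6 lists around the clock, with the list median as a black bar and the quartiles and median of all expressed genes as a grey band and line. The stabilizing loop and output list has its median at 0.28, and the other 5 lists have medians from -0.02 to 0.04.

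By the distance between log2(FPKM + 1) values at the 2 ages, which is only 2 values per gene, the expressed genes nearest to Per2 were Rassf10 (9.79 and 13.7 FPKM), the sweet and umami receptor gene Tas1r3 (10.3 and 14.6 FPKM) and Slc6a19 (10.3 and 14.4 FPKM). Those nearest to Arntl were Ltbp1 (6.87 and 5.08 FPKM), Cmtm3 (6.84 and 5.23 FPKM) and Igf2bp2 (6.54 and 5.19 FPKM). The authors reported Tas1r3 as unchanged between these ages by qRT-PCR, a different measure, and taste cell markers as unchanged in the sequencing.

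Markers of all 3 taste cell types were present, and summed marker levels of other cell types differed between the ages. Each sum runs over all markers of the list that are in the table, those not expressed included. Beside the counts of markers higher or lower, 46.3% of all expressed genes were higher at 6 months. Type II markers (5 of 5 expressed) summed to 212 FPKM in 2 month and 219 FPKM in 6 month cells, with 3 higher and 2 lower. Type III markers (5 of 5) summed to 31.3 and 36.3 FPKM, all 5 higher, with log2 changes from 0.15 to 0.34. Type I markers (2 of 3) summed to 76.1 and 66.4 FPKM, with Entpd2 and Kcnj1 lower. Slc1a3, the type I marker under the filter, had 0.71 and 0.988 FPKM. Cornified layer markers (4 of 4 in the table) summed to 1607 FPKM in 2 month and 827 FPKM in 6 month cells, all 4 lower at 6 months. Salivary gland markers (3 of 4 expressed) summed to 107 and 34.7 FPKM, and without Lipf, which had 83.7 and 14.7 FPKM, to 22.9 and 20.0 FPKM. Fibroblast markers (1 of 4 expressed) summed to 42.4 and 27.6 FPKM, of which Dcn had 42.0 and 27.3 FPKM. Skeletal muscle markers (4 of 5) summed to 7.32 FPKM in 2 month and 16.7 FPKM in 6 month cells, all 4 higher. Leukocyte markers (2 of 4) summed to 12.3 and 9.77 FPKM, and without Cd68, which had 10 and 7.15 FPKM, to 2.24 and 2.62 FPKM. Endothelial markers (0 of 3) summed to 0.383 and 0.399 FPKM. Keratinocyte markers (3 of 4) summed to 3467 FPKM in 2 month and 3495 FPKM in 6 month cells without Krt4. Krt4 had 7334 FPKM at 2 months and was listed at 0 at 6 months, and Krt13 was listed at 0 at both ages. A listed 0 can be a failed estimate, so these zeros are not read as absence. In pooled cells, more cells of a type and more RNA per cell cannot be told apart, and the part of these differences in the clock values was not tested.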

How the data were processed

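Total RNA of isolated CV/Fol taste cells was poly A selected and sequenced in 3 libraries at 2 months and 3 at 6 months. Mapping by the authors used TopHat2 2.0.7, the GRCm38/mm10 build and the iGenomes RefSeq annotation, after which they quantified transcripts with Cufflinks 2.1.1 and compared the ages with Cuffdiff. The authors deposited 1 FPKM value per gene and age. The value_1 column, marked B, was taken as 6 months and the other, marked S, as 2 months, after the sample titles. The p-values that the authors deposited beside them are unadjusted, hold their own comparison and were not used. Depth is unknown, and the normalization inside Cuffdiff is not given in the sources used here.

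The change of a gene was log2(FPKM + 1) of 6 month cells minus that of 2 month cells, which understates changes of weakly expressed genes. Expressed genes had a mean of at least 1 FPKM. A log2 change of 0.32 on this scale, rounded, was the limit for counts. No test was made. The members and lists were chosen with earlier results of these data known. Of 148 list entries, 147 were matched to the table, 3 of them by an older symbol, and 1 further gene of the stabilizing loop list was left out, after its values had been seen but not because of them, and is not reported here. Named genes were the 8 members, the stabilizing loop list, the 2 highest and 2 lowest changes of each other list of clock-related genes, and the 3 genes nearest to Per2 and to Arntl. Marker genes, D930015M05Rik and Csnk1e's levels were added after their values were seen. Gene spans and exon overlaps came from GENCODE M21 (GRCm38), and promoter windows from RefSeq (GRCm38.p6). The steps were run on simulated data with built-in changes larger than those of the 8 members and a smaller spread between genes. That run checked the code and cannot judge counts such as those given here. Alternatives were other pseudocounts, scalings, filters and folds. Scripts ran in Python 3.11.15 with numpy 2.4.6, pandas 2.3.3 and matplotlib 3.10.9.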

Additional observations from a re-analysis of the deposited data

How the results depend on the processing

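No paired analysis was possible because each age is given by 1 value, with none per library, and leaving out replicates was not run for the same reason. Of 111 recomputed values, leaving out those where only the background genes differed, 102 stayed within 0.1 on the log2 scale, or within 1.5 times for a count. The scalings multiplied the 6 month values by 1.009 to 1.069, which is too little to shift a log2 value by 0.1. For log2 values under the scalings this outcome was therefore fixed beforehand, and the count of 102 is no measure of robustness. Over the pseudocounts and scalings Per2 ranged from 0.57 to 0.66, Per1 from 0.47 to 0.56, Arntl from -0.42 to -0.28, Npas2 from -0.38 to -0.21 and Clock from 0.02 to 0.12. The Per and Cry median minus the activator median was 0.67, and 0.78 with a pseudocount of 0.1 FPKM and 0.79 with none. The number of core clock genes lower by at least 0.32 was 1, and 2 with either of these pseudocounts, and 0 when both ages were scaled to the same FPKM sum without small RNA genes, since Arntl was then at -0.28. The number higher by at least 0.32 was 4, and 5 under 4 of the 5 pseudocounts and scalings, where Cry2 was also past the limit. The share of all expressed genes past the limit was not computed under these pseudocounts and scalings. The shifts in both counts are therefore given without further reading. At a fold of 1.5, 0 genes were higher and 0 lower, beside 1.05% and 1.72% of expressed genes, and at a fold of 2 also 0 and 0, beside 0.561% and 1.04%. The background over genes in the range of the members was added after the data had been seen. Under the scalings the median of all expressed genes lay between 0.00 and 0.07, and the 2 values that changed sign were those of the glucocorticoid list median, which was -0.02, and 0.02 with equal upper quartiles and 0.07 with equal FPKM sums. No clock gene or clock group changed sign. For single genes this was fixed by the settings, since a pseudocount cannot change the sign of a difference. Every scaling raised the 6 month values, so genes higher at 6 months could not turn, and by too little to turn Arntl or Npas2.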

Other observations

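Pathways that reach the Per genes from outside the clock were looked at in 2 further lists. Beside both lists, 46.3% of all expressed genes were higher, 2.95% passed 0.32 upward and 4.23% passed it downward. Cyclic AMP signalling acts on Per1 through CREB, and of 14 expressed CREB pathway genes 7 were higher and 7 lower at 6 months. Their median log2 change was 0.01, and 0 passed 0.32 in either direction. The highest were the kinase genes Sik2 (0.18) and Sik3 (0.11), whose proteins restrain the CREB coactivators. The lowest were Crem (-0.15), a CREB relative, and Vipr1 (-0.13), a receptor gene for vasoactive intestinal peptide. Glucocorticoids act on Per1 and Per2 through the receptor encoded by Nr3c1, and of 9 expressed genes of this list 4 were higher and 5 lower, with a median of -0.02 and 1 gene lower by at least 0.32. The receptor gene had 6.55 FPKM in 2 month and 7.12 FPKM in 6 month cells. The highest were the response genes Tsc22d3 (0.20) and Fkbp5 (0.14), and the lowest were Hsd11b1 (-0.35), which regenerates active glucocorticoid and went from 10.8 to 8.28 FPKM, and Klf9 (-0.22). These are transcript levels, which do not measure the activity of either pathway, and they are given without a test.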
